A study of Saccharomyces cerevisiae with 10 samples.

Results

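Transcript levels of [ESI+] diploids of budding yeast were compared with those of snt1 deletion diploids. The comparison used 4 of the 10 libraries of the series, 2 replicates of each state, and 6390 of 7126 targets other than spike-ins had enough reads to be tested. The [ESI+] group is labelled as a diploid of strain BY4743 in the [ESI+] state. The snt1 deletion group is labelled as a BY4743 diploid lacking SNT1, and naive BY4743 diploids are given as another level where they help to place a value. BY4743 diploids lacking HOS2 or SET3, 2 libraries each, entered the shared estimate of the spread and the choice of silent genes. Their levels are given for FRE1, HXT1, YKR075C and IMD2. All groups were grown in rich glucose medium (YPD) to mid-logarithmic phase. RNA was extracted with hot acid phenol, ERCC spike-in RNAs were added, cDNA was primed from poly(A) tails on beads, and paired-end reads came from an Illumina HiSeq instrument. Nothing in the labels ties a replicate to its own culture or gives the number of clones per strain, so the p-values cover the spread among these libraries alone. The naming of the libraries was checked against SNT1 itself, described below.

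Snt1 is a SANT-domain subunit of the Set3 complex, in which the histone deacetylases Hos2 and Hst1 work with Set3, a protein that binds methylated histone H3, and with Sif2, Hos4 and the peptidyl-prolyl isomerase Cpr1. The complex acts over transcribed genes, and it is known as a repressor of meiotic genes in growing cells. [ESI+] is a heritable, prion-like state that involves Snt1 and takes its name from expressed genes close to chromosome ends. The comparison sets cells that hold Snt1 in this state against cells that hold no Snt1.

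Depth, as the sum of estimated counts, was 55180700 and 58713200 in the [ESI+] libraries and 22057000 and 24831600 in the snt1 deletion libraries. The [ESI+] replicates were less alike than the snt1 deletion replicates in ribosomal RNA, in reads at silent targets and in the mitochondrial genome. This did not hold for every list below. Ribosomal RNA took 28.0% and 8.62% of the counts in [ESI+] replicates 1 and 2, against 15.8% and 15% in the snt1 deletion. Silent targets were picked for each group from levels in the remaining groups, always without [ESI+], 178 for [ESI+] and 174 for the snt1 deletion. They showed median levels per kb of 0.341 and 1.48 CPM (counts scaled to library size) in the [ESI+] libraries and 0 in both snt1 deletion libraries. For targets of the mitochondrial genome these medians per kb were 3.50 and 13.6 CPM in [ESI+] libraries and 0.141 and 0.0990 CPM in the snt1 deletion. The part of these differences in the results below was not tested, and counts with this background subtracted are given for several lists.

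SNT1 (YCR033W, chromosome III, 186489 to 190169, R64) was at 36.7 and 73.4 CPM in [ESI+] cells and at 0.0554 and 0.263 CPM in snt1 deletion cells. The deletion libraries held 1 and 4 counts of it, and naive cells had 34.4 and 39.3 CPM. The deletion label was met in both libraries, with a ratio of [ESI+] to snt1 deletion of 383 (exact 95% interval for counting error 164 to 1180). In edgeR's fit the log2 fold change was 8.48 ± 0.51 (SE throughout after this sign), with an adjusted p of 1.61e-05. The neighbours of SNT1, named after their values were seen, did not share a drop of this size. ELO2, a fatty acid elongase next to it, had 94.9 and 82.9 CPM in [ESI+] and 101 and 101 CPM in the snt1 deletion (log2 -0.19 ± 0.22, adjusted p 0.518). BPH1, on the other side, was higher in [ESI+] at 15.8 and 22.3 CPM, against 8.98 and 8.41 CPM, with a log2 fold change of 1.13 ± 0.21 (adjusted p 0.00248). Naive cells had 10.3 and 9.97 CPM of it. BPH1 is a long target of 6504 bases, and it lost its call with background subtracted and a length trend removed, as described below.

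Of the other genes of the Set3 complex, HOS2 and CPR1 passed the threshold of an adjusted p under 0.05. SIF2 had 11.5 and 12.6 CPM in [ESI+] and 11.1 and 12.9 CPM in the snt1 deletion, and HST1 had 23.0 and 21.7 CPM against 20.8 and 23.5 CPM. HOS4 (log2 0.23 ± 0.17) and SET3 (0.77 ± 0.28, adjusted p 0.0505) did not pass it. HOS2, the catalytic deacetylase, was higher in [ESI+] at 8.02 and 13.4 CPM, against 6.15 and 4.2 CPM in the snt1 deletion (log2 1.04 ± 0.31, adjusted p 0.0211). It kept its call in only 2 of the 4 fits that left out 1 library. CPR1, which shares reads with other targets, was lower in [ESI+], with 699 and 664 CPM against 2720 and 4700 CPM (log2 -2.45 ± 0.35, adjusted p 0.000739).

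A set of stable nuclear genes was drawn from the calls. They are protein-coding, share no reads, have a mean of at least 5 CPM in 1 of the 2 groups and groups that do not overlap, and kept their call in each fit without 1 of the 4 libraries. Within this set the gene that fell most was FET3, the multicopper oxidase of high-affinity iron uptake. FET3 (chromosome XIII, 388822 to 390732) had 56.3 and 65.4 CPM in [ESI+] cells, 760 and 529 CPM in snt1 deletion cells, and 111 and 129 CPM in naive cells. The next was FTR1 (chromosome V, 460526 to 461740), the iron permease that forms the uptake complex with Fet3, with 43.7 and 40.5 CPM in [ESI+], 498 and 293 CPM in the snt1 deletion, and 89.0 and 124 CPM in naive cells. The log2 fold changes of [ESI+] over the snt1 deletion were -3.41 ± 0.27 for FET3 (adjusted p 4.52e-05) and -3.23 ± 0.29 for FTR1 (adjusted p 7.6e-05). That the 2 groups did not overlap follows from the rule of the set, and in both genes the naive libraries lay between them. SIT1, a transporter of iron bound to siderophores, was at 12.4 and 11.6 CPM in [ESI+] and at 64.6 and 34.9 CPM in the snt1 deletion (log2 -2.05 ± 0.28, adjusted p 0.000692), while naive cells had 9.25 and 7.63 CPM. TIS11, whose product binds and destabilises transcripts of iron-using proteins, was at 3.84 and 4.39 CPM in [ESI+] and at 22.0 and 16.3 CPM in the snt1 deletion (log2 -2.22 ± 0.25, adjusted p 0.000379), with 6.91 and 9.58 CPM in naive cells.

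These genes are known targets of Aft1 and Aft2, the transcription factors that turn on iron uptake when iron is scarce. Their upstream sequence is shown because the 4 genes named above carry the Aft core, as does FIT1, which rose, while FRE1 and CTR1 carry a copper-responsive core instead. The 500 bases before each start codon in the R64 genome were searched for the Aft core TGCACCC and the core of the copper-responsive factor Mac1, TTTGCTC, on both strands, and these letters do not overlap each other. The windows run 5′ to 3′ on the gene's strand, with every such core or reverse complement in capitals and 20 bases on each side of the first. Not shown are further cores before FRE1 (96 bases), FIT1 (182), TIS11 (173) and CTR1 (311) and a Mac1 core before FTR1 (81).
FET3, core 251 bases before the start codon, plus strand, chrXIII:388551-388597: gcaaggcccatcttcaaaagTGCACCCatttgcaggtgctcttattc
FTR1, core 175 bases before the start codon, minus strand, chrV:461889-461935: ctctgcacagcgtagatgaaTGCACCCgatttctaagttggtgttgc
FTR1, reverse complement 365 bases before the start codon, minus strand, chrV:462079-462125: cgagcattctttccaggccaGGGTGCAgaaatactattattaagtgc
SIT1, reverse complement 188 bases before the start codon, plus strand, chrV:27449-27495: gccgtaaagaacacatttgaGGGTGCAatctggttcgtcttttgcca
TIS11, core 249 bases before the start codon, minus strand, chrXII:416881-416927: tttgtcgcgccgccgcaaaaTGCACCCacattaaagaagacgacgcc
FIT1, core 284 bases before the start codon, minus strand, chrIV:1505158-1505204: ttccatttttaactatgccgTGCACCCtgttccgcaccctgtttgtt
FRE1, Mac1 cores 286 and 269 bases before the start codon, plus strand, chrXII:568261-568307: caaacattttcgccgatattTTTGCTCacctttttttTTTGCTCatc
CTR1, Mac1 core 334 bases before the start codon, plus strand, chrXVI:785854-785900: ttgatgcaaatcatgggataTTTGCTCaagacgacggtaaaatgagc
The Aft core was found before 23 of the 32 genes of the iron list and before 139 of 5905 open reading frames in all (2.4%). The list was drawn up from genes known to respond to iron or copper, many of them as Aft targets, so the high share follows from its making. Within the list, the core was found before 8 of the 10 genes that fell, 2 of the 5 that rose and 13 of the 17 that were not called. The Mac1 core was found before 8.7% of all open reading frames and before 4 genes of the list, which include FRE1, CTR1 and FTR1.

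The iron list did not move as a whole. Of its 32 members 15 were called, 5 higher and 10 lower in [ESI+], beside 37.0% of all targets called, 18.7% higher and 18.3% lower. Its median log2 fold change was -0.12, beside 0.13 over all targets tested. The cell-surface metal reductase FRE1 rose to 110 and 96.2 CPM in [ESI+], against 10.7 and 37.7 CPM in the snt1 deletion (log2 2.10 ± 0.48, adjusted p 0.00963). Its level was 134 and 104 CPM in the hos2 deletion and 102 and 130 CPM in the set3 deletion, while naive cells had 14.9 and 20.7 CPM. FRE7, a putative reductase known to respond to copper, rose to 19.6 and 15.3 CPM in [ESI+], against 1.05 and 3.74 CPM in the snt1 deletion (log2 2.89 ± 0.45, adjusted p 0.00145). For FRE1 and FRE7 the naive libraries lay among or beside the snt1 deletion libraries, unlike for FET3 and FTR1. The next genes were named after their values were seen. FIT1, a cell wall mannoprotein that holds siderophores, had 7.31 and 12.6 CPM in [ESI+] and 3.10 and 3.22 CPM in the snt1 deletion (log2 1.65 ± 0.32, adjusted p 0.00301). Its relatives FIT2 and FIT3 did not pass the threshold, and the snt1 deletion replicates lay far apart there, at 7.49 and 44.1 CPM for FIT2 and 53.4 and 334 CPM for FIT3. CTR1, the high-affinity copper transporter, behaved likewise, at 135 and 130 CPM in [ESI+] and 23.2 and 108 CPM in the snt1 deletion (adjusted p 0.197). ISU2, a scaffold protein for iron-sulfur clusters, was lower in [ESI+] (log2 -1.74 ± 0.27, adjusted p 0.00123), and AFT2 itself was higher (1.07 ± 0.22, adjusted p 0.00402). CTR1 and ISU2 share reads with other targets.

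**Figure D1:**
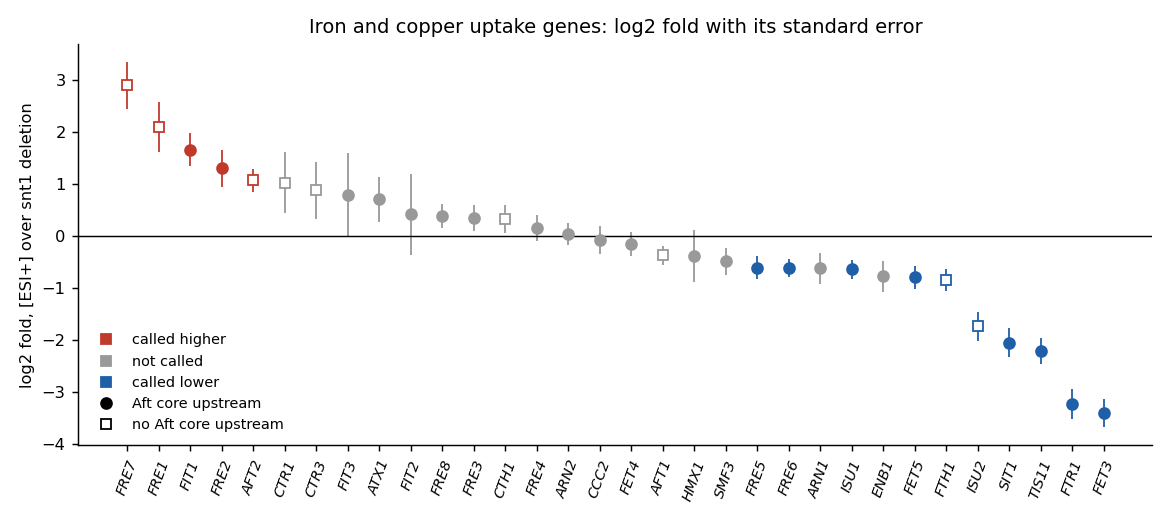
Log2 fold change of [ESI+] over the snt1 deletion with its standard error for the 32 iron and copper genes, ordered by value. Red points were called higher in [ESI+], blue points lower and grey points not called. Filled circles have the Aft core within 500 bases of the start codon and open squares do not. FET3 and FTR1 lie lowest, below -3, and FRE7 and FRE1, without the Aft core, lie highest.

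Several other genes differed between the snt1 deletion and naive cells, while [ESI+] cells were near naive cells or between them and the deletion. HXT1, the low-affinity glucose transporter, had 161 and 175 CPM in [ESI+], 27.4 and 43.0 CPM in the snt1 deletion, and 134 and 193 CPM in naive cells. Its log2 fold change of [ESI+] over the snt1 deletion was 2.25 ± 0.27 (adjusted p 0.000443). YKR075C, a protein of unknown function, had 25.7 and 20.8 CPM in [ESI+], 3.55 and 3.42 CPM in the snt1 deletion, and 43.1 and 35.4 CPM in naive cells (log2 2.74 ± 0.31 for [ESI+] over the snt1 deletion, adjusted p 0.000406). IMD2, an IMP dehydrogenase of guanine nucleotide synthesis, had 125 and 107 CPM in [ESI+], 41.6 and 40.2 CPM in the snt1 deletion, and 208 and 261 CPM in naive cells (log2 1.51 ± 0.21, adjusted p 0.000704). The hos2 and set3 deletions were below naive cells at these 3 genes too. YKR075C had 2.95 and 4.35 CPM in the hos2 deletion and 6.96 and 3.52 CPM in the set3 deletion. IMD2 had 45.4 and 47.9 CPM and then 46.1 and 48.9 CPM there. HXT1 had 88.1 and 84.7 CPM and then 55.2 and 53.2 CPM, above the snt1 deletion. The libraries of these 3 genes did not overlap between [ESI+] and the snt1 deletion, nor did those of 70.5% of all targets. For YKR075C this follows from the rule of the stable nuclear set. HXT1 and IMD2 were named for the smallest p of their lists. IMD2 and HXT1 share reads with related genes, so part of their values depends on how kallisto divided those reads. The snt1 deletion was also set against naive cells in the same fit, which uses the same deletion libraries. There the log2 fold change was 2.43 for FET3, 1.89 for FTR1, 2.55 for SIT1, -2.22 for HXT1, -3.50 for YKR075C and -2.52 for IMD2, all with an adjusted p under 0.05. [ESI+] over naive was -0.98 for FET3, -1.34 for FTR1, 0.50 for SIT1, 0.04 for HXT1, -0.76 for YKR075C and -1.01 for IMD2. FET3, FTR1 and IMD2 passed the threshold there too.

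**Figure D2:**
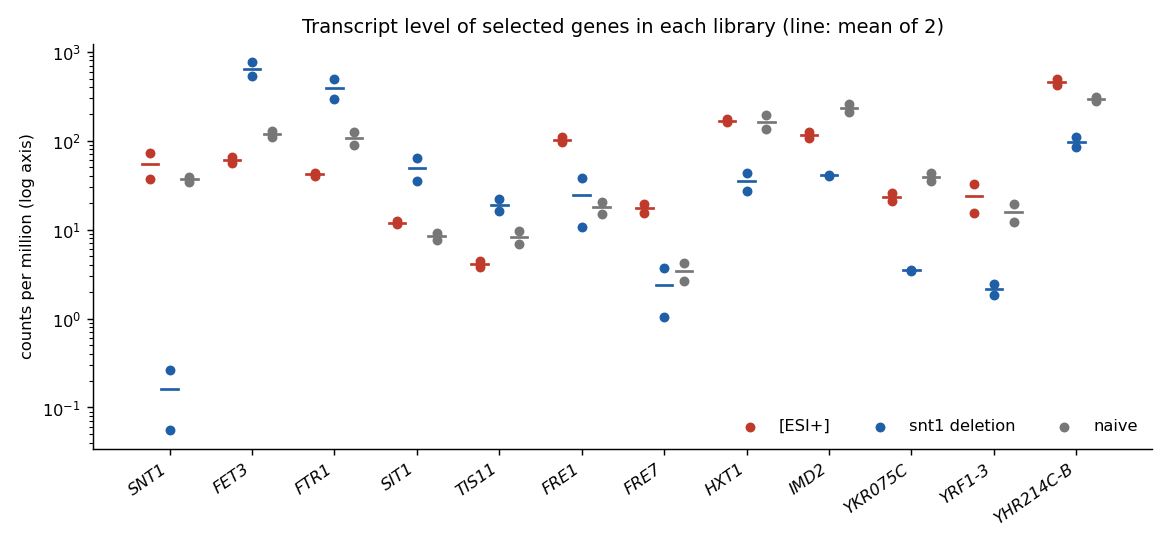
CPM on a log axis in each library for 12 genes, with [ESI+] in red, the snt1 deletion in blue, naive cells in grey, and a line at each mean of 2. The snt1 deletion libraries are the lowest at SNT1, HXT1, IMD2, YKR075C, YRF1-3 and YHR214C-B and the highest at FET3, FTR1, SIT1 and TIS11. At FRE1 and FRE7 the [ESI+] libraries stand above both other groups.

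Of the 6390 targets 2363 were called (37.0%), 1192 higher and 1171 lower in [ESI+]. Of all targets 70.5% had groups that did not overlap. A change of more than 2-fold and a call were found for 1470 targets, 706 higher and 764 lower. Leaving out each of the 4 libraries in turn kept 700 targets called in every fit, 319 higher and 381 lower, and without [ESI+] replicate 2 alone 756 targets were called. The naive mean lay nearer to the snt1 deletion mean than to the [ESI+] mean for 2046 called targets, and nearer to [ESI+] for 317, on the scale log2(CPM + 0.1). Targets nearer to [ESI+] were 201 of those called higher and 116 of those called lower, FET3, FTR1, HXT1 and IMD2 among them.

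The direction of the calls went with target length. In the shortest 25% of targets (75 to 597 bases) 111 were called higher and 405 lower in [ESI+], and in the longest 25% (1824 to 14733 bases) 568 were called higher and 102 lower. The median log2 fold change was -0.18 in the shortest and 0.38 in the longest 25%. With the length trend of each library removed and the background at silent genes subtracted, 2030 targets were called, 842 higher and 1188 lower, and 1614 of the original calls were kept. Direction went with level too. Of 3716 targets with a mean of at least 10 CPM over all libraries 494 were called higher and 1027 lower. Of 507 targets under 1 CPM 97 were higher and 3 lower. The median level was 4610 CPM in the glycolysis list and 725 CPM in ribosomal proteins, but 1.53 CPM in the early meiotic list. The part of level in the lists below was not tested.

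**Figure D3:**
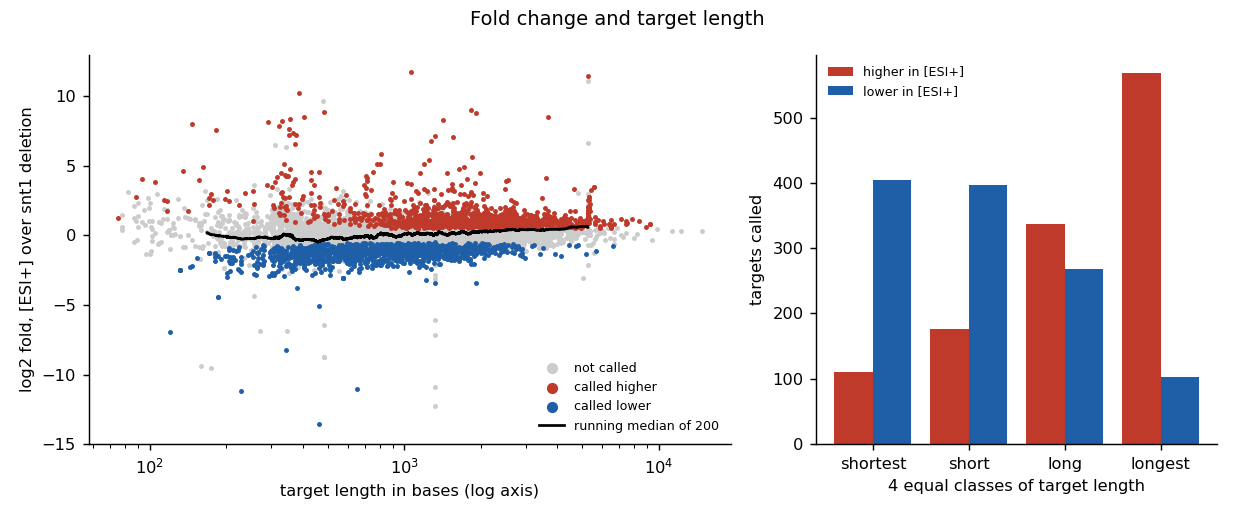
Left, log2 fold change of [ESI+] over the snt1 deletion against target length on a log axis for all 6390 targets, with called targets in red (higher) and blue (lower) and the running median of 200 targets as a black line. Right, targets called higher (red) and lower (blue) in [ESI+] in 4 equal classes of length. The lower calls outnumber the higher ones in the shortest class, 405 to 111, and the reverse holds in the longest, 568 higher to 102 lower.

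Genes of growth and energy metabolism were lower in [ESI+] than in the snt1 deletion. In bulk RNA a lower level of a transcript cannot be told apart from fewer cells that express it. CPM here are not shares of all reads. TMM factors multiplied the library sizes by 1.22 and 1.58 in [ESI+] and by 0.837 and 0.629 in the snt1 deletion. The summed levels of lists depend on this scaling, and its part in them was not tested. Of 23 genes of glycolysis and fermentation 15 fell and none rose, with a median of -1.20. PGI1, glucose-6-phosphate isomerase, had 2800 and 2410 CPM in [ESI+], against 6280 and 9070 CPM in the snt1 deletion (log2 -1.56 ± 0.33, adjusted p 0.00494). ENO1, an enolase that shares reads with other targets, had 6120 and 5070 CPM against 16100 and 18000 CPM (log2 -1.61 ± 0.35, adjusted p 0.00562). GPD2, a glycerol-3-phosphate dehydrogenase, had 206 and 202 CPM against 392 and 512 CPM (log2 -1.14 ± 0.26, adjusted p 0.00633). The summed level of the list was 161000 and 161000 CPM in [ESI+], 343000 and 503000 CPM in the snt1 deletion, and 285000 and 486000 CPM in naive cells. With both corrections 15 members were called lower. With spike-in library sizes the median over all targets is 1.48, so the medians of these lists were positive there and directions are given relative to all targets. Set against that median, glycolysis stood at -1.24, ribosomal proteins at -1.05, the TCA cycle and respiratory chain at -0.68, cell wall genes at -0.65 and mitochondrial ribosomal proteins at -0.45.

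Of 138 ribosomal protein genes 90 fell and none rose in [ESI+], with a median log2 fold change of -1.06, and 121 had both [ESI+] libraries below both snt1 deletion libraries, where 70.5% of all targets did not overlap in either direction. Their summed level was 90100 and 80000 CPM in [ESI+], against 158000 and 207000 CPM in the snt1 deletion. RPL22A had 281 and 251 CPM in [ESI+] and 1060 and 1570 CPM in the snt1 deletion (log2 -2.30 ± 0.30, adjusted p 0.000535). RPL43A had 236 and 196 CPM against 1120 and 667 CPM, and RPS21B had 203 and 148 CPM against 546 and 1230 CPM. Of these genes 114 share reads with a near copy. They are short, and with both corrections 54 were called lower and 1 higher, with a median of -0.69. Mitochondrial ribosomal protein genes moved likewise, with 28 of 71 lower and none higher (median -0.41). IMG1, of the large subunit, had 27.6 and 20.4 CPM in [ESI+], against 107 and 167 CPM in the snt1 deletion (log2 -2.51 ± 0.32, adjusted p 0.000506), and RSM19, of the small subunit, had 10.7 and 7.51 CPM against 28.2 and 28.2 CPM.

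In the list of the TCA cycle and the nuclear-encoded respiratory chain, 22 of 50 genes fell and 1 rose (median -0.67). CYT1, cytochrome c1, had 49.4 and 47.1 CPM in [ESI+], against 142 and 142 CPM in the snt1 deletion (log2 -1.56 ± 0.25, adjusted p 0.00128). COX5A, a cytochrome c oxidase subunit, had 30.8 and 24.8 CPM against 74.2 and 77.1 CPM (log2 -1.44 ± 0.20, adjusted p 0.000709). Cell wall genes were also mostly lower, 20 of 44 against 4 higher (median -0.58). The mannoprotein CCW12 had 2200 and 2330 CPM in [ESI+], against 8440 and 14300 CPM in the snt1 deletion (log2 -2.33 ± 0.34, adjusted p 0.00084), and CWP2 and CCW14, also mannoproteins, had log2 fold changes of -2.13 and -1.76. DSE1, which acts in the separation of daughter cells, rose to 71.3 and 59.7 CPM in [ESI+], against 27.4 and 22.4 CPM in the snt1 deletion (log2 1.39 ± 0.21, adjusted p 0.000949).

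Further lists also had more members lower than higher. Of the genes of amino acid synthesis under Gcn4, 14 of 50 fell and 2 rose. GDH1, which makes glutamate from ammonium, fell to 532 and 432 CPM in [ESI+], against 1540 and 2420 CPM in the snt1 deletion (log2 -2.04 ± 0.33, adjusted p 0.00135), while ARG4, of arginine synthesis, rose (log2 1.04 ± 0.19, adjusted p 0.00226). Translation factors gave 9 lower and 2 higher of 36. EFB1, of elongation factor 1, had 768 and 756 CPM in [ESI+] and 1900 and 3170 CPM in the snt1 deletion, whereas GCD6, of initiation factor 2B, rose (log2 1.14 ± 0.23, adjusted p 0.00389). Heat shock chaperones gave 8 lower and 1 higher of 29, and HSP60, the mitochondrial chaperonin, fell (log2 -1.45 ± 0.27, adjusted p 0.00277). Fatty acid and phospholipid synthesis gave 7 lower and 1 higher of 20, with OPI3, a phospholipid methyltransferase, at 49.1 and 59.5 CPM in [ESI+], against 196 and 255 CPM in the snt1 deletion. Histones gave 3 lower of 10, among them the linker histone HHO1 at 43.6 and 36.3 CPM in [ESI+], against 122 and 230 CPM (log2 -2.14 ± 0.30, adjusted p 0.000709), and the histone H2B gene HTB1 (log2 -0.94 ± 0.25, adjusted p 0.0126). HTB1 shares reads with other targets and lost its call with both corrections. The zinc and copper list gave 5 lower of 14, and CRS5, a metallothionein, had 2.09 and 2.60 CPM against 6.15 and 8.08 CPM. Among all targets 37.0% were called, 18.7% higher and 18.3% lower. The called share was below that 37.0% for the Gcn4 list (32.0%), translation factors (30.6%), heat shock chaperones (31.0%) and zinc and copper (35.7%). Histones were below it too, and fatty acid and phospholipid synthesis was above it. These lists thus differed from all targets in direction more than in the share called.

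The phosphate list gave 9 lower and 3 higher of 23, with the phosphate transporter PHO84 (log2 -1.51 ± 0.28, adjusted p 0.00253) and the polyphosphate synthase subunit VTC1 (-1.31 ± 0.24, adjusted p 0.00242) lower. Ergosterol genes gave 8 lower and 4 higher of 27, and 4 in each direction with the background subtracted, with the sterol importer PDR11 higher (log2 0.94 ± 0.24, adjusted p 0.0101). PDR11 kept its call in 2 of the 4 fits without 1 library and lost it with both corrections. Nitrogen catabolite genes gave 7 lower and 4 higher of 26. There CAR2, of arginine breakdown, had 35.1 and 42.8 CPM in [ESI+], against 198 and 220 CPM in the snt1 deletion (log2 -2.43 ± 0.32, adjusted p 0.000576). CAR2 shares reads with other targets. The proteasome (8 lower, 5 higher of 33), general stress genes (11 and 5 of 45), mitotic and M/G1 genes (6 and 2 of 26) and purine genes (4 and 2 of 19) were closer to the shares over all targets. With the background subtracted the purine list gave 1 lower and 2 higher. MCM1, a transcription factor of the mitotic list, fell to 29.1 and 29.8 CPM in [ESI+], against 90.3 and 172 CPM in the snt1 deletion (log2 -2.15 ± 0.34, adjusted p 0.00143). Of 22 genes of other histone deacetylases and corepressors 7 fell and 3 rose, with DEP1, of the Rpd3L complex, at 13.3 and 15.5 CPM in [ESI+], against 65.4 and 73.0 CPM (log2 -2.27 ± 0.28, adjusted p 0.00049).

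In the list of silencing and telomere proteins 13 of 26 genes rose and 1 fell in [ESI+], with a median log2 fold change of 0.79. YKU70, a subunit of the Ku complex that binds DNA ends and telomeres, had 8.82 and 10 CPM in [ESI+], against 1.61 and 2.50 CPM in the snt1 deletion (log2 2.20 ± 0.38, adjusted p 0.00178). SET1, the methyltransferase for histone H3 lysine 4, had 20.1 and 20.3 CPM against 11.5 and 11.0 CPM (log2 0.84 ± 0.18, adjusted p 0.00538). TEL1, a checkpoint kinase that maintains telomere length, had 21 and 27 CPM against 11.4 and 12.1 CPM (log2 1.03 ± 0.22, adjusted p 0.00488). With background and length trend both removed, 3 of the list were called higher and 1 lower, YKU70 kept its call, SET1 lost its call, and TEL1 turned to a log2 fold change of -0.129. Of 15 histone acetyltransferase genes only 2 were called (13.3%, beside 37.0% of all targets), both higher. They were SAS3, at 12 and 12.7 CPM in [ESI+] and 4.05 and 3.15 CPM in the snt1 deletion (log2 1.77 ± 0.24, adjusted p 0.000655), and HAT1 (1.39 ± 0.28, adjusted p 0.00402). SAS3 shares reads with other targets.

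Genes of meiosis and mating, which diploids in rich medium hardly express, were called higher in [ESI+] at low levels. Of 23 early meiotic genes tested 15 rose and 1 fell (median 1.51), of 32 middle and late meiotic genes 17 rose and none fell (median 1.61), and of 29 mating and haploid-specific genes 11 rose and none fell (median 1.07). With the background reads at silent genes subtracted the higher calls numbered 3, 1 and 4 in these lists. SPO1, a meiotic phospholipase-like gene, had 4.55 and 6.21 CPM in [ESI+], against 1.55 and 1.25 CPM in the snt1 deletion, and ADY3, of the spore membrane, had 5.92 and 8.77 CPM against 1.5 and 2.3 CPM. Both kept their call with the background subtracted (log2 1.94 ± 0.39, adjusted p 0.00386, and 1.96 ± 0.39, adjusted p 0.00348, before it). SSP1, also of the spore membrane, had 1.14 and 2.71 CPM in [ESI+] and 1 count in each snt1 deletion library, a ratio of 33.8 (exact 95% interval 9.29 to 281), and it lost its call. REC107, needed for meiotic recombination, went the other way, with 5.95 and 8.38 CPM in [ESI+] and 16.0 and 29.7 CPM in the snt1 deletion (log2 -1.67 ± 0.32, adjusted p 0.00345). In the mating list STE6, the exporter of a-factor, had 7.51 and 9.87 CPM in [ESI+], against 2.94 and 2.63 CPM (log2 1.64 ± 0.27, adjusted p 0.00146). STE6 lost its call with background and length trend both removed. AFR1, of the mating projection, had 13 and 17.5 CPM against 5.93 and 4.14 CPM.

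Marker genes of other cell states were read beside these lists. The 17 haploid markers summed to 51.4 and 71.9 CPM in [ESI+] and to 31.5 and 28.0 CPM in the snt1 deletion, with 6 called higher. The 10 markers of sporulation summed to 21.2 and 37.8 CPM against 13.7 and 17.1 CPM, with 6 called higher. The 8 markers of respiring or post-diauxic cells, 7 of them tested, summed to 48.4 and 47.4 CPM against 111 and 62.4 CPM, with 1 called lower. Without HSP12, at 10.4 and 6.37 CPM in [ESI+] and 73.0 and 15.7 CPM in the snt1 deletion, they summed to 38.0 and 41.1 CPM against 38.5 and 46.7 CPM. None of these markers was at 0 in both libraries of either group, and their part in the results was not tested.

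Targets of the mitochondrial genome had the largest list median, 5.02, with 23 of 24 higher and none lower. VAR1, a mitochondrial ribosomal protein gene, had 6.68 and 14.6 CPM in [ESI+], against 0.166 and 0.460 CPM in the snt1 deletion (log2 5.11 ± 0.71, adjusted p 0.000762). The intron maturase frame BI4, which shares reads with other targets, had 4.40 and 25.6 CPM in [ESI+]. The maturase-like frame Q0255 had 3.23 and 17.6 CPM there, and each had 1 count over both snt1 deletion libraries. Their ratios were 548 (exact 95% interval 98.3 to 21700) and 380 (68.1 to 15000). The median level per kb of these targets and that of the silent genes were both highest in [ESI+] replicate 2, and the part of the background in this result was not tested.

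Reading frames of Ty retrotransposons were higher for 32 and lower for 3 of 76 tested, with a median of 1.12, and 68 of them share reads with other copies. Their median length was 5032 bases, and with both corrections 23 were called higher and 7 lower, with a median of 0.47. YNL284C-B, a gag-pol frame, had 36.7 and 41.1 CPM in [ESI+], against 6.10 and 7.55 CPM in the snt1 deletion (log2 2.51 ± 0.21, adjusted p 6.06e-05). YPL257W-B, another, had 8.16 and 8.97 CPM in [ESI+] and no estimated count in the snt1 deletion. With 3 counts for the whole group as the floor, the ratio was 95.6. Which copy the reads came from is uncertain for these frames, so this ratio is not a lower bound. Small nucleolar and nuclear RNAs gave 5 higher and 1 lower of 61, a share of 9.8% called beside 37.0% of all targets. SNR36, with 32 and 60 counts in [ESI+] and no count in the snt1 deletion, was at least 6.59-fold higher by that floor.

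Among ribosome assembly factors the higher share was close to that of all targets for the large subunit, and fewer were lower. Of 43 genes of the small-subunit processome 12 rose and 2 fell (median 0.23), and of 53 genes of large-subunit assembly 11 rose and 2 fell (median 0.15), beside 18.7% higher and 18.3% lower among all targets. MAK5, an RNA helicase of the large subunit, had 28.3 and 28.7 CPM in [ESI+], against 13 and 13.1 CPM in the snt1 deletion (log2 1.12 ± 0.21, adjusted p 0.00278). NOP53 had 16.6 and 17.7 CPM against 7.65 and 6.50 CPM. UTP9 (log2 1.20 ± 0.28, adjusted p 0.0067) and UTP22 (0.84 ± 0.18, adjusted p 0.00525), both of the processome, were higher too. With both corrections 6 processome genes were called higher and 4 lower, UTP22 lost its call, and 11 large-subunit factors were called higher and 1 lower. RNA polymerase I genes gave 2 higher and 3 lower of 17, with the subunit RPA14 at 14.8 and 11.8 CPM in [ESI+], against 38.5 and 58.6 CPM (log2 -1.87 ± 0.23, adjusted p 0.000459).

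In carbohydrate storage, 7 of 20 glycogen and trehalose genes rose and 1 fell. GLG1, glycogenin, which primes glycogen, had 40.4 and 47.1 CPM in [ESI+], against 12.9 and 19.9 CPM in the snt1 deletion (log2 1.42 ± 0.22, adjusted p 0.00121). GAC1, which directs a phosphatase to glycogen synthase, had 28.8 and 24.5 CPM against 8.98 and 10.2 CPM (log2 1.47 ± 0.28, adjusted p 0.00283). Of 17 hexose transporters and sensors 4 rose and none fell, a share of 23.5% called beside 37.0% of all targets. Besides HXT1 the transporter HXT15, which shares reads with other targets, had 3.59 and 7.26 CPM against 1.11 and 1.64 CPM. In the list of gluconeogenesis and fatty acid oxidation 4 of 25 rose and 4 fell. There the peroxisomal fatty acid importers PXA1 (log2 1.94 ± 0.36, adjusted p 0.00268) and PXA2 (1.81 ± 0.34, adjusted p 0.00263) were higher, and ALD4, a mitochondrial aldehyde dehydrogenase, was lower at 138 and 111 CPM, against 424 and 315 CPM. Sulfur amino acid genes gave 3 in each direction of 26, with CYS3, cystathionine gamma-lyase, at 667 and 850 CPM in [ESI+], against 1930 and 4670 CPM (log2 -2.12 ± 0.42, adjusted p 0.00355), and STR2 higher (1.16 ± 0.21, adjusted p 0.00221).

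The lists of G1 and S-phase genes (6 higher, 4 lower of 35), autophagy and vacuolar proteases (7 and 5 of 21), DNA damage response (6 and 2 of 16), multidrug resistance (3 and 0 of 16), NAD synthesis (2 and 1 of 15), thiamine (1 and 0 of 20) and flocculins (0 and 1 of 6) were small or mixed. SWI4, of the G1 transcription factor SBF, rose to 10.4 and 14.1 CPM in [ESI+], against 3.94 and 5.39 CPM (log2 1.40 ± 0.26, adjusted p 0.00268). PCL1, a G1 cyclin, fell to 2.22 and 5.13 CPM, against 12.4 and 12.3 CPM in the snt1 deletion (log2 -1.74 ± 0.34, adjusted p 0.00378), and naive cells had 3.88 and 6.0 CPM. The photolyase PHR1 rose (1.44 ± 0.23, adjusted p 0.00143), as did the autophagy enzyme ATG7 (1.23 ± 0.23, adjusted p 0.00244), while the vacuolar carboxypeptidase PRC1 fell (-1.48 ± 0.28, adjusted p 0.00257).

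**Figure D4:**
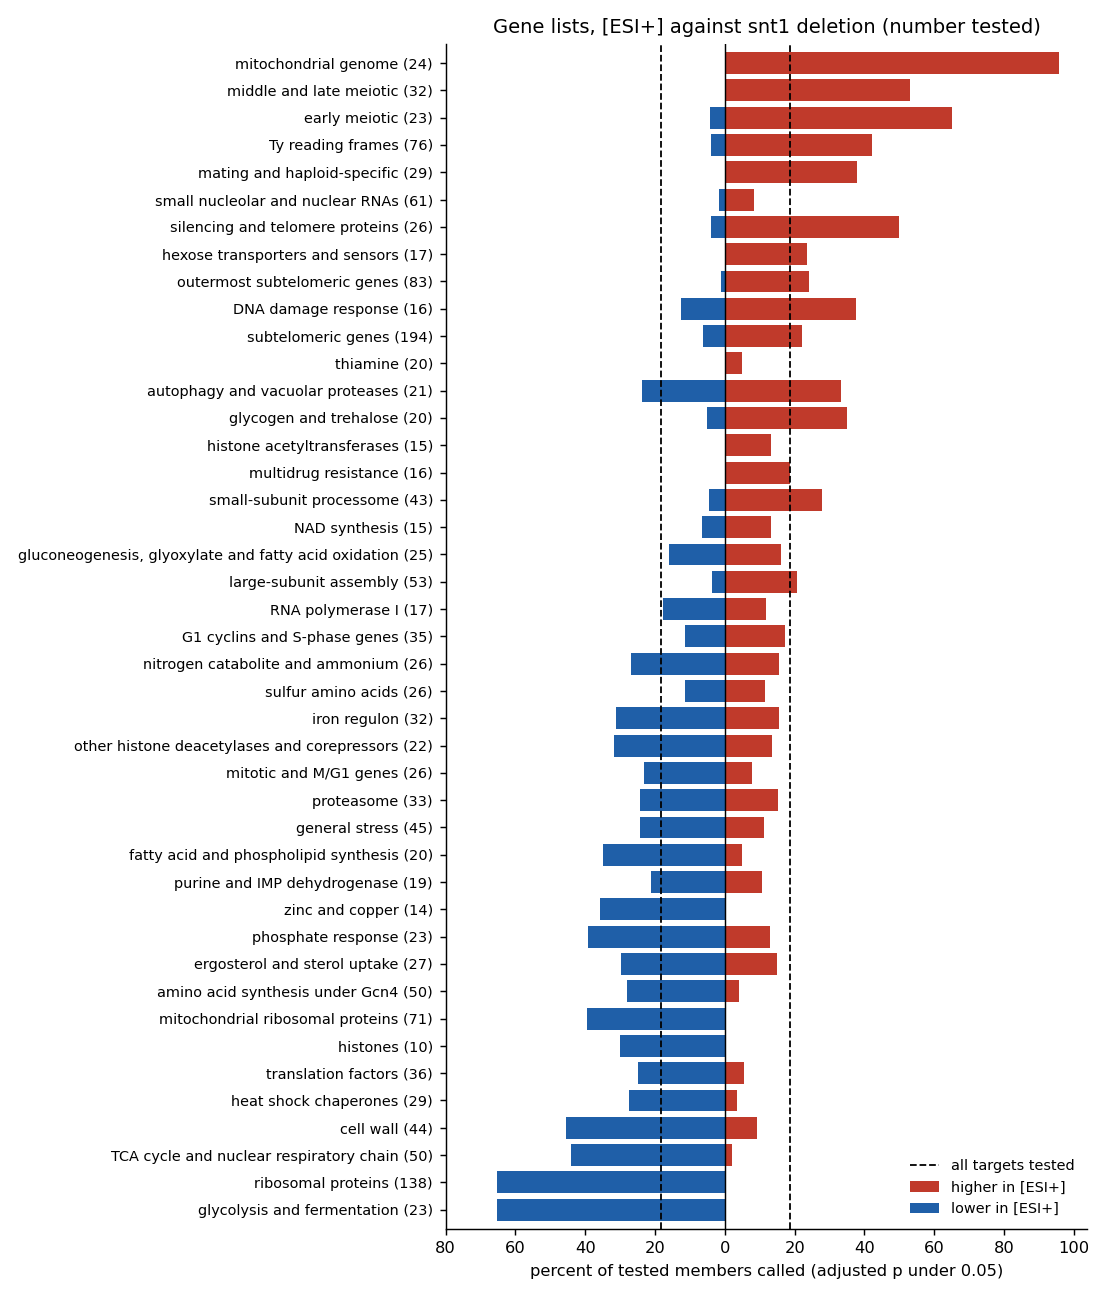
Percent of the tested members of each gene list called higher (red, to the right) or lower (blue, to the left) in [ESI+] than in the snt1 deletion, ordered by median log2 fold change, with the number tested in brackets. Dashed lines mark the shares over all targets, 18.7% higher and 18.3% lower. Ribosomal proteins and glycolysis reach 65.2% called, all lower, and the mitochondrial genome 95.8%, all higher.

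Genes near chromosome ends, after which [ESI+] was named, were called mostly in the higher direction. Of 194 tested genes that lie wholly within 20 kb of an end 55 were called (28.4%, beside 37.0% of all targets), 43 higher and 12 lower in [ESI+], and the median log2 fold change was 0.60. Within 10 kb 20 of 83 rose and 1 fell, and within 40 kb 103 of 464 rose and 58 fell. Within 20 kb the median level was 3.07 CPM over all libraries. Reads are shared with other targets by 117 of the 194 genes, and by 60 of the 83 within 10 kb. With the background subtracted, 29 of the list within 20 kb were called higher and 19 lower, with a median of 0.18, and within 10 kb 16 were higher and 6 lower. With the length trend removed as well, 29 were higher and 23 lower within 20 kb, and 15 and 8 within 10 kb. The summed level within 20 kb was 4340 and 4080 CPM in [ESI+], 4230 and 4930 CPM in the snt1 deletion, and 4880 and 6070 CPM in naive cells, and the naive libraries did not overlap those of [ESI+].

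YRF1-3 and YRF1-7, which encode the helicase of the telomeric Y' elements, were identical over their 5728 bases, so each value is a share of the same reads. Each had 15.2 and 32.7 CPM in [ESI+], 1.83 and 2.43 CPM in the snt1 deletion, and 12.3 and 19.2 CPM in naive cells. The log2 fold change of [ESI+] over the snt1 deletion was 3.50 ± 0.46 (adjusted p 0.000854), and the naive libraries were near the [ESI+] libraries. YHR214C-B, a Ty frame in the same region (chromosome VIII, 543964 to 549346), had 497 and 426 CPM in [ESI+], 84.8 and 110 CPM in the snt1 deletion, and 312 and 276 CPM in naive cells (log2 2.24 ± 0.25, adjusted p 0.000377). IMD2, described above, lies 6.676 kb from the right end of chromosome VIII. YPR202W, a Y' element frame, had 5.83 and 9.16 CPM in [ESI+] and 0.222 and 0.788 CPM in the snt1 deletion (log2 3.92 ± 0.66, adjusted p 0.00169), and here naive cells, at 0.873 and 0.156 CPM, were beside the deletion. IRC24, a dehydrogenase gene, fell to 38.4 and 33.6 CPM in [ESI+], against 111 and 191 CPM in the snt1 deletion (log2 -2.06 ± 0.33, adjusted p 0.0013). YHR214C-B, YPR202W and IRC24 also share reads with other targets.

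Within the set of stable nuclear genes defined with FET3, the largest increases after SNT1 were in YLR342W-A (4.25 and 5.78 CPM in [ESI+], 0.887 and 0.328 CPM in the snt1 deletion), FRE7 and YKR075C. YLR264C-A, a short frame of unknown function, had 44.6 and 46.2 CPM against 8.21 and 8.34 CPM (log2 2.46 ± 0.40, adjusted p 0.00209). TAD1, the tRNA adenosine deaminase (5.93 and 6.06 CPM against 1.66 and 0.920 CPM), ARO5 (9.69 and 8.83 CPM against 2.33 and 1.77 CPM) and YLR108C (4.37 and 5.87 CPM against 0.887 and 1.31 CPM) followed with log2 fold changes between 2.17 and 2.23. The meiotic helicase HFM1 and the phosphatase-like gene OCA4 had log2 fold changes of 1.99 and 1.96. After FET3 and FTR1, COQ21 fell most within this set, to 2.48 and 2.36 CPM in [ESI+], against 15.7 and 23.0 CPM in the snt1 deletion (log2 -3.00 ± 0.23, adjusted p 4.52e-05). MIC10, which shapes the cristae of mitochondria, fell to 19.6 and 17.1 CPM, against 130 and 145 CPM (log2 -2.91 ± 0.25, adjusted p 6.06e-05). SMX3, a core protein of splicing particles, fell to 6.41 and 5.81 CPM, against 38.8 and 51.0 CPM (log2 -2.88 ± 0.22, adjusted p 4.52e-05). COA3 and MIX17, also mitochondrial, SPC25 of the kinetochore, RPB11 of RNA polymerase II, YDR524C-B, IMP21, YNL208W and SOM1 had log2 fold changes between -2.78 and -2.51. In these genes the naive libraries were nearer to the snt1 deletion than to [ESI+].

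Of any kind of target, YHR054C, a frame in the CUP1 repeat, had 4.81 and 16.7 CPM in [ESI+] and no estimated count in the snt1 deletion. With the same floor the ratio was 128. YCR087C-A (15.2 and 58.8 CPM in the snt1 deletion), CPP2 (9.26 and 4.73 CPM) and YHR137C-A (6.38 and 6.17 CPM) had no estimated count in [ESI+]. With that floor they were 1820-fold, 371-fold and 324-fold lower there. All 4 share reads with other targets, so a count of 0 depends on how kallisto divided those reads, and these ratios are not lower bounds. In naive cells YHR054C was at 0 CPM too, YCR087C-A at 16.4 and 22.9 CPM, CPP2 at 9.84 and 9.5 CPM and YHR137C-A at 10.3 and 18.5 CPM. The copper metallothionein genes CUP1-1 and CUP1-2, identical over 186 bases and so given the same value, had 1.59 and 0.816 CPM in [ESI+], against 41.1 and 8.87 CPM in the snt1 deletion (log2 -4.39 ± 0.90, adjusted p 0.0121).

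BY4743 lacks URA3, LEU2 and part of HIS3, and it is heterozygous at LYS2 and MET17. URA3 had 3.89 and 25.6 CPM in [ESI+], against 0.499 and 0.328 CPM in the snt1 deletion and 0.244 and 0.312 CPM in naive cells (log2 5.13 ± 0.93, adjusted p 0.00384). It was highest in [ESI+] replicate 2, the labels name no plasmid, and the call was kept in 2 of the 4 fits without 1 library. HIS3 had 26.1 and 23.9 CPM in [ESI+], against 102 and 169 CPM in the snt1 deletion (log2 -2.44 ± 0.30, adjusted p 0.00049). LEU2, LYS2 and MET17 did not pass the threshold (adjusted p 0.0797, 0.0515 and 0.185).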

How the data were processed

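The expected counts and TPM deposited by the authors come from kallisto 0.44 and genome build R64, per the submitters' processing notes. Per the file headers they are estimated counts per target without normalization, and TPM. Whether strand was kept is not given in the sources used here. Expected counts were rounded, ERCC targets were set aside, and edgeR 4.0.16 in R 4.3.3 (filterByExpr, TMM, robust quasi-likelihood fit, 1 coefficient per group, all 10 libraries) gave [ESI+] over the snt1 deletion, two-sided, with Benjamini-Hochberg adjustment over 6390 targets at 0.05. CPM use TMM library sizes, and ± marks the SE of a log2 fold change. Positions come from the R64 RefSeq annotation, which held 6006 of 6685 open reading frames. Silent genes are nuclear, at least 300 bases long and under a mean of 0.2 CPM per kb in the groups other than [ESI+] and the library's own. DESeq2 1.42.0 and limma 3.58.1 were alternatives.

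The members, the lists and the rule for naming genes were chosen with earlier results of these data known. Named were the Set3 complex, 5 auxotrophic markers, the 15 highest and 15 lowest stable nuclear genes, the 5 highest and 5 lowest of any kind, and, by smallest p, at most 4 genes of each list and 6 subtelomeric genes, and a ranking was cut short only at its end. On simulated counts of the 6390 targets for this comparison the fit called 49.3%, 95.5% and 98.5% of genes changed 2-, 4- and 8-fold. Counting intervals and floors cover counting error only. A gene withheld from this text is not reported here.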

Additional observations from a re-analysis of the deposited data

How the results depend on the processing

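As reported, 2363 targets were called, and 2889 were called with the replicate number as a block. The labels do not say that the numbers pair the libraries, and deviations of same-numbered [ESI+] and snt1 deletion libraries correlated at 0.181, others between -0.0728 and 0.346. Only 64 targets (52 higher, 12 lower) were called with spike-in library sizes, 4205 (4028 and 177) with limma-trend on log2(TPM + 1), 1367 (593 and 774) with only the 4 libraries compared, and 195 (62 and 133) when a fold over 2 was tested. With the length trend removed 2314 were called (801 and 1513). Leaving out 1 library gave 756 to 2824 calls, 357 to 1369 higher and 399 to 1455 lower. The median log2 fold change over all targets was 0.13, and 1.48 with spike-in sizes, 1.00 in TPM and 0.04 with RLE scaling. Spike-in reads were 0.946% and 5.19% of the [ESI+] libraries, against 2.28% and 2.54% of the snt1 deletion libraries. For the 55 subtelomeric calls the same settings gave 6 (spike-in), 132 (TPM), 27 (only the 4 libraries) and 5 (fold over 2), while 29 were called at a mean of at least 10 CPM, 35 without shared reads, 21 within 10 kb and 161 within 40 kb, and 11 to 69 without 1 library. Single genes reversed sign with spike-in sizes at log2 fold changes of 0.039 (COX5A), 0.29 (GPD2), 0.063 (HSP60), 0.49 (HTB1) and 0.17 (VTC1). In TPM HTB1 reversed to 0.18, and TEL1 reversed to -0.129 with background subtracted and length trend removed. Of 138 named genes 136 had the same outcome with DESeq2, 136 with the block and 29 with spike-in sizes. A gene without a call counted as the same if it stayed without one, whatever its sign. Many of these genes were named for a small p or a stable call, so their selection favoured high counts here. With spike-in sizes FET3 (-2.14) and FTR1 (-1.89) lost their call. The cause was not tested. Depth limits genes under about 1 CPM.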

Other observations

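The following genes were picked after their values were seen, from the 48 stable nuclear genes (protein-coding, no shared reads, groups that do not overlap, a mean of at least 5 CPM in 1 group, a call kept in each fit without 1 library) whose naive mean lay nearer to [ESI+]. MTH1, which holds glucose transporter genes repressed when glucose is low, had 36.6 and 27.8 CPM in [ESI+], 12.1 and 15.5 CPM in the snt1 deletion, and 37.8 and 41.5 CPM in naive cells (log2 1.22 ± 0.21 for [ESI+] over the snt1 deletion, adjusted p 0.00161). PFK26 and PFK27, the kinases that make fructose 2,6-bisphosphate, were higher in [ESI+] by 1.32 ± 0.20 (adjusted p 0.001) and 1.53 ± 0.24 (adjusted p 0.0012) on the log2 scale. The repressor gene MIG3 had 5.96 and 6.84 CPM in [ESI+], 2.16 and 2.50 CPM in the snt1 deletion, and 7.12 and 9.74 CPM in naive cells. HAP4, an activator of respiratory genes, had 125 and 113 CPM in [ESI+], 41.4 and 66.7 CPM in the snt1 deletion, and 93.4 and 77.2 CPM in naive cells (log2 1.14 ± 0.26, adjusted p 0.00664), whereas 22 of the 50 TCA cycle and respiratory genes were lower in [ESI+]. CYC7, the second cytochrome c, had 10.6 and 7.84 CPM in [ESI+], 2.72 and 2.10 CPM in the snt1 deletion, and 15.1 and 6.85 CPM in naive cells. YOX1, a repressor of the cell cycle genes that Mcm1 activates, was lower in [ESI+] at 2.87 and 5.69 CPM, against 10.1 and 20.1 CPM in the snt1 deletion (log2 -1.81 ± 0.40, adjusted p 0.00681).

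RAP1, which encodes a factor that binds telomeric repeats, had 33.4 and 70.8 CPM in [ESI+], against 23.5 and 29.5 CPM in the snt1 deletion (log2 0.98 ± 0.32, adjusted p 0.0315), and kept its call in only 1 of the 4 fits without 1 library. Like SNT1 and URA3, it was highest in [ESI+] replicate 2. The labels name no plasmid, and whether reads of these 3 genes came from one was not tested.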
